A study of Homo sapiens with 4 samples.

Results

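CXCR4, CXCL12 and CXCR7 form a small chemokine signalling system, and their transcripts were followed here in A549 cells exposed to embelin. A549 is an established human lung adenocarcinoma line of alveolar epithelial origin, and embelin is a plant benzoquinone known as an inhibitor of the apoptosis inhibitor XIAP. The members were found by name and by transcript. All non-control probes whose gene name was CXCR4, CXCL12 or CXCR7 (also called ACKR3, CMKOR1 or RDC1), or whose target was a RefSeq transcript of one of them, were taken. That gave 3 genes of 30970 named genes or transcripts on the arrays, measured by 7 probes. Both receptors were among the 17530 genes tested, and CXCL12 was not. The 3 genes were selected with their embelin against control signals in these same arrays already known, so these differences are given as a description, without a p-value.

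The series held 4 single-colour arrays of total RNA from A549 cells, 2 from untreated controls (embelin at 0 µM) and 2 from cells given 15 µM embelin, all collected at 4 h. All cells had been grown with 10% serum and moved to medium with 2% serum 12 h before the treatment began, so the controls shared the low serum. The treatment time was chosen by the study to find early pathways of embelin-induced apoptosis. The labels call the arrays of a group replicates and name no separate cultures, so the errors measure the spread between these samples only. All 10 epithelial and A549 markers, among them KRT8, KRT18 and ALDH1A1, were well above background on the 4 arrays, and none was called changed. Since RNA of whole cultures was measured, a change in the share of cells expressing a gene and a change in RNA per cell cannot be told apart.

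CXCL12 (SDF-1) is a secreted chemokine. It binds CXCR4, a receptor that signals through inhibitory G proteins to phosphoinositide 3-kinase, Rac and ERK and directs cell migration. CXCR7 binds CXCL12 and CXCL11, recruits arrestins rather than activating G proteins, and removes the chemokine from the surroundings. In lung cancer CXCR4 is known for its part in metastasis to organs rich in CXCL12, and its gene is a known target of the hypoxia-inducible factors.

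The probes themselves set what could be seen. Each was a 60-base oligonucleotide present as 1 spot per array. The first 30 bases, written 5′ to 3′, are given for the single probe of each receptor and for some of the CXCL12 probes. The CXCL12 probes shown are that against the transcript NM_000609 and the pair against the transcript NM_001033886.
CXCR4 (NM_001008540): tgctggtttttcagttttcaggagtgggtt
CXCR7 (NM_020311): atctgtgtggtgttttgtaccggcacggga
CXCL12 (NM_000609): cataccaatgaaaaaatgtatatgcactta
CXCL12 (NM_001033886), first: acagaagaagagaaaggctgcccagaaaag
CXCL12 (NM_001033886), second: agaagaagagaaaggctgcccagaaaagga
The last pair overlapped by 58 bases, with the second starting 2 bases further along, so their readings are not independent of each other. The GC content of the full probes was 43.3% for CXCR4, 45% for CXCR7 and 25% for the NM_000609 probe.

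CXCR4 was higher on both embelin arrays than on both control arrays. Its normalized log2 signal was 7.27 on control 1, 7.40 on control 2, 11.22 on embelin 1 and 11.11 on embelin 2. The groups did not overlap, and the lowest embelin value lay 3.72 log2 units above the highest control value. Such separation with embelin higher was found for 21.1% of the 17304 genes measured on all 4 arrays. The mean went from 7.33 ± 0.09 (SD, n = 2) to 11.17 ± 0.07 (SD, n = 2), which is a log2 difference of 3.83 (SE 0.17, the standard error that limma gives). On the linear scale this was 14.3-fold, with 12.7-fold and 16.0-fold at 1 standard error on either side. By log2 fold change CXCR4 stood at place 40 from the top among the 17530 genes tested.

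CXCR4 could be measured on the control arrays too. Its spot was 8.35 and 8.87 times the local background on control 1 and control 2, against 104 and 111 times on embelin 1 and embelin 2. All 4 readings were well above background, and none was saturated. The scanner software put the error of a single reading at 10.0% to 12.5%.

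CXCR7 showed a much smaller difference in a dim signal. Its normalized log2 signal was 5.92 on control 1, 5.33 on control 2, 6.28 on embelin 1 and 6.45 on embelin 2. The groups did not overlap, which with embelin higher held for 21.1% of the 17304 genes measured on all 4 arrays. Only 0.36 log2 units separated the CXCR7 groups, and the reading on control 2 was not well above background. CXCR7 therefore passed the filter on dim probes through the embelin arrays alone. The mean went from 5.63 ± 0.41 (SD, n = 2) to 6.37 ± 0.12 (SD, n = 2), which is a log2 difference of 0.74 (SE 0.26) or 1.67-fold. Of all genes tested, 9.50% had a larger log2 fold change. The spot was 4.04 to 5.70 times its local background over the 4 arrays.

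CXCL12, the ligand, was at or near background in every group. Of its 20 readings, 5 probes on 4 arrays, 3 were well above background. These were the NM_199168 probe on embelin 2, at a log2 signal of 4.13, and the second NM_001033886 probe on control 1 and embelin 2, at 4.12 and 4.63. The other three probes were never well above background. On control 2 all 5 readings, and on embelin 1 4 of 5, were values the scanner software puts in place of a signal that is too low to measure. The 5 probes spanned 2.69 to 4.12 on control 1, 3.58 to 3.69 on control 2, 3.77 to 4.11 on embelin 1 and 2.50 to 4.63 on embelin 2. No probe was well above background on both arrays of a group, so no fold change is given. Stromal and marrow cells are known abundant sources of CXCL12, and the low reading says only that it was not detectable with these probes at this signal.

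**Figure D1:**
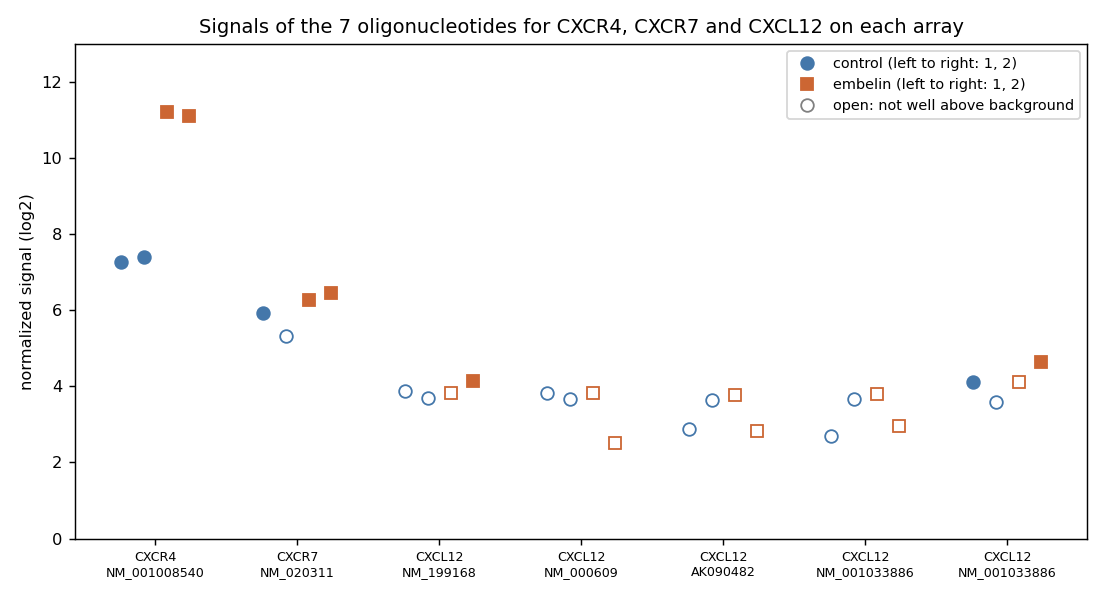
Normalized log2 signal of each of the 7 probes for the 3 genes, labelled by target transcript. Circles are the control arrays and squares the embelin arrays, each drawn as replicate 1 then 2, and open symbols were not well above background. The levels of different probes are not comparable. The 2 CXCR4 squares sit at 11.22 and 11.11 and the 2 circles at 7.27 and 7.40, while most CXCL12 symbols are open.

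The arrays differed in the share of probes well above background in a way that crossed the groups. The local background itself was alike at the CXCR4 spot, 25 on control 1 and 23 on each other array. Arrays with like shares are called arrays of like background below, and the cause of the difference was not tested. Well above background were 66.7% of probes on control 1 and 66.3% on embelin 2, but 49.9% on both control 2 and embelin 1. All 4 arrays were on 1 slide. Within the pair of arrays with many detected probes, control 1 with embelin 2, CXCR4 was higher by 3.84 log2 units, and within the other pair by 3.82. The CXCR7 difference was 0.54 in the first pair and 0.95 in the second. The CXCR4 difference was thus nearly equal within both, and that of CXCR7 varied by more than its standard error. Between arrays of the same replicate number, the differences were 3.95 and 3.72 for CXCR4 and 0.36 and 1.12 for CXCR7.

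Both values moved with the background correction. With a normexp background correction CXCR4 gave a log2 fold change of 3.38 and CXCR7 one of 0.39. Leaving out each array in turn kept CXCR4 between 3.77 and 3.90, and CXCR7 between 0.45 and 1.04. The lowest of these CXCR7 values came without control 2, the array on which its probe was not well above background.

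**Figure D2:**
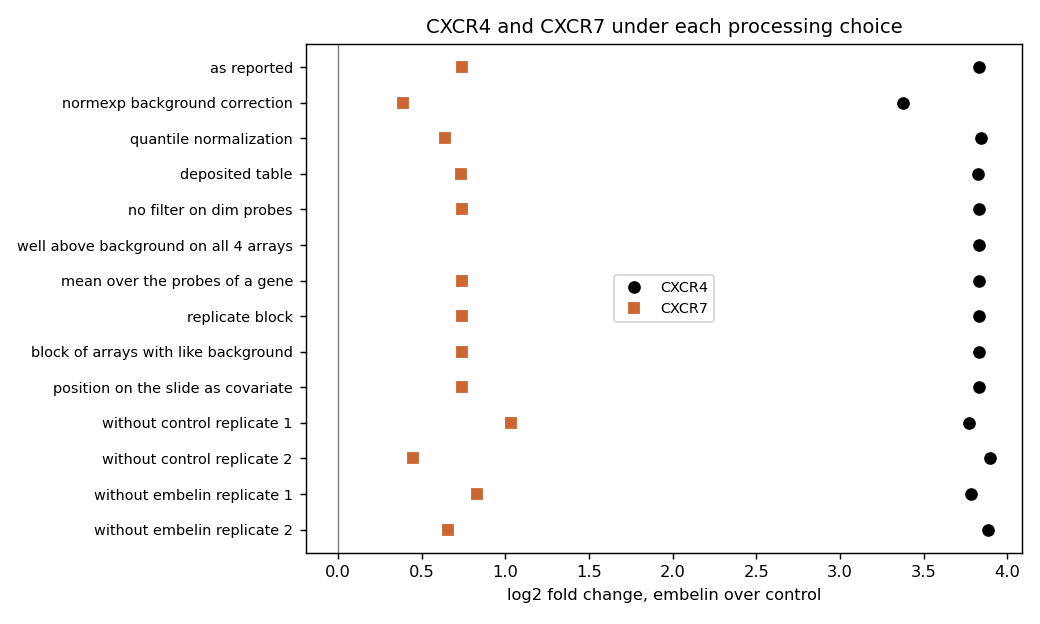
Log2 fold change of CXCR4 (circles) and CXCR7 (squares), embelin over control, as reported and under each alternative. CXCR4 stays between 3.38 and 3.90. CXCR7 stays between 0.39 and 1.04 and has no value where a probe had to be above background on all 4 arrays.

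The other genes of the pathway were taken from 8 lists arranged by role and tested with limma over all genes. The lists were chosen with earlier results of these data known, so their counts of calls are a description and not independent support. At an adjusted p under 0.05, embelin gave a higher call for 1.33% of the 17530 genes and a lower call for 0.622%. Of 119 pathway genes tested, 17 rose and 2 fell by this criterion, and 16 of the 17 belonged to the list of hypoxia-induced genes. Outside that list, 1 of 99 was called higher and 2 were called lower. These calls rest on all 4 arrays together. With any 1 array left out no gene at all was called, while 2130 to 3069 genes had an unadjusted p under 0.05. No gene was called either without the filter on dim probes, with a block of replicate numbers or of arrays with like background, with slide position in the fit or with the methods' t-test after adjustment, and in these 2343 to 3712 genes had an unadjusted p under 0.05.

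Among the other ligands and ligand-handling proteins, 6 of 11 were tested, 1 was called higher, and the median log2 fold change was 0.18. ADM, the vasodilator peptide adrenomedullin, which CXCR7 also binds, had log2 signals of 14.88 and 14.91 in the controls and 17.50 and 17.54 with embelin. It rose by 2.63 log2 units (SE 0.16, adjusted p = 0.022 from limma), and it is also a member of the hypoxia list. SDC4, a heparan sulfate proteoglycan of the cell surface, had a log2 fold change of 1.77 (SE 0.31, adjusted p = 0.082 from limma), which missed the threshold here and passed it with normexp correction, with the filter on all 4 arrays and with the trended robust fit. MIF, a cytokine that also binds CXCR4, had a log2 fold change of 0.14. CXCL11, the other chemokine ligand of CXCR7, was well above background on 1 of the 4 arrays and was not tested. CD74, the MIF receptor chain, and DPP4, the peptidase that cuts the end of CXCL12, were above background on 0 of the 4.

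Few other chemokine receptors were detected. Of 21 on the list 4 were tested (CCR3, CCR7, CCR10 and CXCR3), and none was called, with log2 fold changes from -1.12 to 0.65. CCR7, a receptor of lymphocytes and dendritic cells, had the lowest, with signals of 8.92 and 8.87 in the controls and 7.72 and 7.82 with embelin (adjusted p = 0.061 from limma), and it was called with the filter on all 4 arrays and with the trended robust fit. The leukocyte markers gave no call either. LYZ was above background on 0 of the 4 arrays and PTPRC, the pan-leukocyte marker CD45, on 1. CD14 and CD79A were above background on all 4 arrays, with log2 fold changes of -0.60 and -0.13. CD3E and ITGAM, each above background on 1 control and 2 embelin arrays, passed the filter on dim probes through the embelin arrays alone. Their log2 fold changes were 1.25 and 1.35. CD3E signals were 5.39 and 4.86 in the controls and 7.02 and 5.74 with embelin, and those of ITGAM 6.44 and 5.82 against 8.38 and 6.57. None of these 4 genes passed the threshold. No endothelial marker was tested, and 0 of the 2 fibroblast markers tested was called. COL1A1 had a log2 fold change of 1.30 (adjusted p = 0.054 from limma), just short of the threshold, and THY1 one of -0.52.

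Signal transmission from CXCR4 starts at the inhibitory G proteins and is ended by kinases and arrestins. Of 13 G protein genes tested none was called, and the median was 0.05. GNAI1, GNAI2 and GNAI3, the inhibitory alpha subunits, had log2 fold changes of -0.14, -0.15 and 0.55. GNG11, a gamma subunit, had -0.34. Of the 13 kinases, arrestins and RGS genes tested, 1 was called lower and none higher, with a median of -0.38. The one called was RGS3, which speeds the shut-off of G protein alpha subunits. Its log2 signal was 10.27 and 10.31 in the controls and 8.58 and 8.61 with embelin, and it fell by 1.69 on the log2 scale (SE 0.16, adjusted p = 0.036 from limma).

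The receptor kinases and arrestins that bind CXCR4 directly did not pass the test. GRK2 had a log2 fold change of 0.84 (SE 0.24), GRK3 of -0.48, GRK5 of -0.03 and GRK6 of -0.23. ARRB1 and ARRB2, the arrestins that both receptors recruit, had -0.70 and -0.38, and RGS10, another regulator of G protein signalling, had -0.03. ARRB1 was well above background on only 1 embelin array, so it passed the filter on dim probes through the control arrays alone. With normexp correction its value was -0.30. Among the 12 genes of receptor ubiquitination and sorting, all tested, none was called, and the median was 0.00. ITCH, the ubiquitin ligase that marks CXCR4 for degradation, had a log2 fold change of 0.50 (SE 0.28), and HGS, an endosomal sorting protein, one of 0.30. The other HGS probes ran from -0.98 to 0.23.

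Downstream of the receptor, 37 of 40 genes were tested, and 1 was called lower and none higher. That gene was VAV3, a guanine nucleotide exchange factor. Its log2 signal was 10.79 and 10.99 in the controls and 7.18 and 7.13 with embelin, and it fell by 3.74 on the log2 scale (SE 0.17, adjusted p = 0.020 from limma). A second VAV3 probe had a log2 fold change of -2.15, and with the mean over both probes, -2.95, the gene was no longer called. The median of the list was -0.10. AKT2, a kinase downstream of phosphoinositide 3-kinase, had a log2 fold change of -0.23, and its other probes ran from -0.25 to 0.50.

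**Figure D3:**
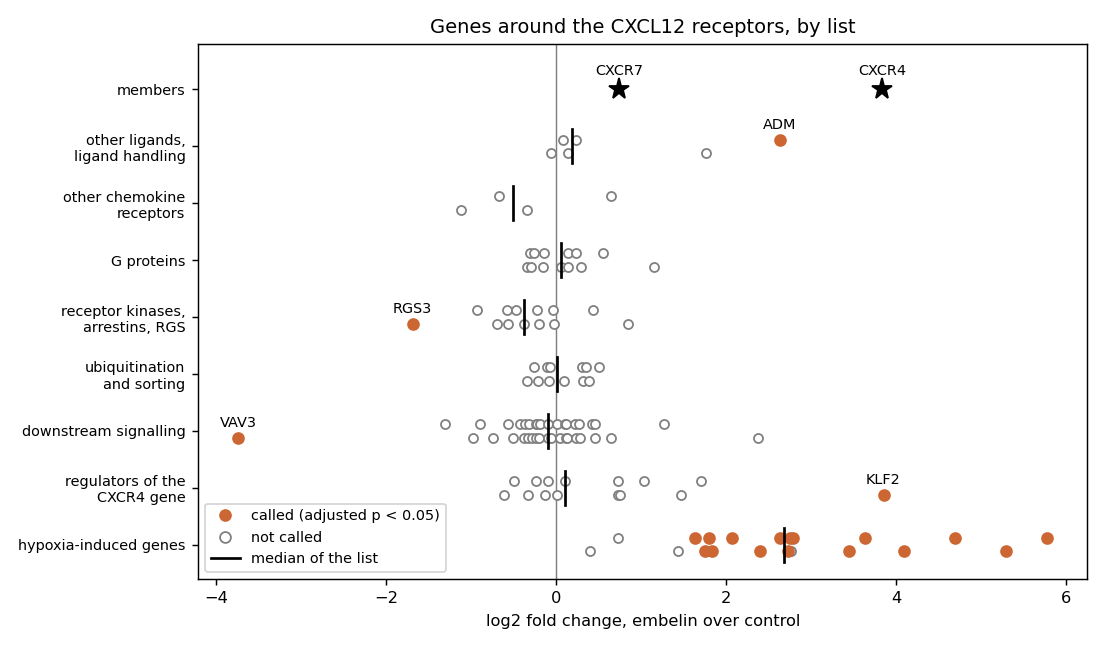
Log2 fold change, embelin over control, of each tested gene in the 8 lists around CXCR4 and CXCR7 (stars, not tested as members). Filled circles were called at an adjusted p under 0.05 over all genes, open circles were not, and vertical bars are list medians. The filled circles lie mostly in the hypoxia-induced list, whose median is 2.68.

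Known or proposed regulators of the CXCR4 gene were compared next. Of 15 tested, 1 was called higher, and the median was 0.10. It was KLF2, a zinc finger factor, with log2 signals of 11.10 and 11.23 in the controls and 15.10 and 14.92 with embelin. It rose by 3.85 (SE 0.17, adjusted p = 0.020 from limma), and its second probe showed 1.46. HIF1A, an oxygen-regulated factor controlled mainly at the protein level, had a log2 fold change of -0.61 (adjusted p = 0.152 from limma). EPAS1, which encodes HIF-2 alpha, had 0.73 (adjusted p = 0.118 from limma). NRF1, an activator of the CXCR4 promoter, had 0.75, and YY1, a repressor of it, 0.01. VHL, which targets HIF proteins for destruction, had 0.10.

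Of the 20 hypoxia-induced genes, all tested, 16 were called higher, beside 1.33% of all genes, and none lower. This list too was chosen with earlier results of these data known, so the share is a description. The median log2 fold change of these genes was 2.68, against -0.06 over all genes. The values ran from 0.39 to 5.77. The 5 with the largest calls were HK2, a hexokinase, at 5.77, ANGPTL4, an inhibitor of lipoprotein lipase, at 5.29, NDRG1, a stress gene, at 4.69, ANKRD37, an ankyrin repeat gene, at 4.10, and VEGFA, an angiogenic factor, at 3.63. The CXCR4 value of 3.83 thus lay between those of ANKRD37 and VEGFA. PGK1, a glycolytic enzyme, had 0.73 (adjusted p = 0.154 from limma) and was not called.

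The genes whose profile over the 4 arrays was nearest to that of CXCR4 were found among 15296 genes above background on all arrays. Likeness was the root mean square difference of log2 signals, each centred on the gene's own mean, so a gene could be near only if it moved by about as much. KLF2 was nearest, at 0.03 log2 units, a place that rests on the probe chosen for it, since its second probe had a log2 fold change of 1.46 and the mean over both one of 2.66. PFKFB4, an enzyme that regulates glycolysis, followed at 0.10, TFF1, a secreted trefoil peptide, at 0.11, N4BP3, a protein that binds the ubiquitin ligase NEDD4, at 0.11, and ANKRD37 at 0.16. Their log2 fold changes were 3.85, 3.64, 3.83, 3.92 and 4.10. With 4 arrays in 2 groups, these distances mostly compare the size of the difference between groups.

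**Figure D4:**
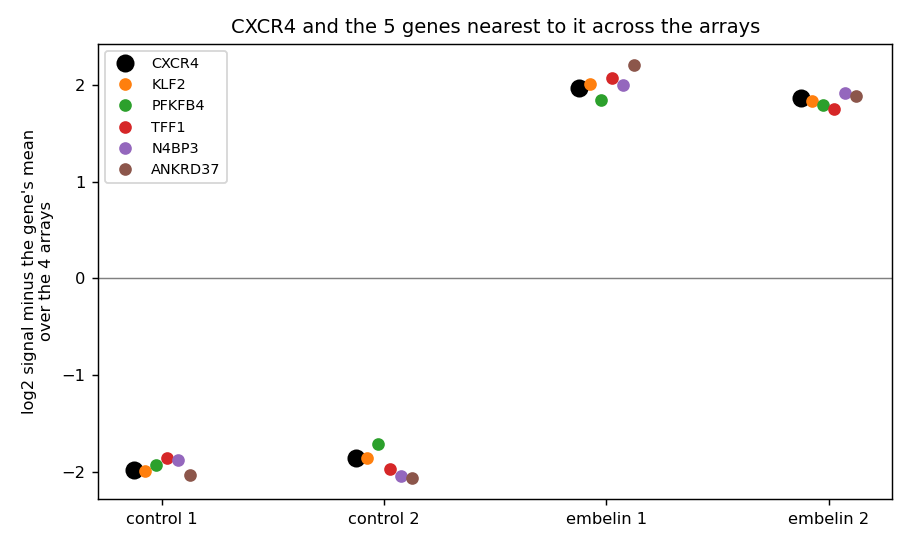
Log2 signal minus the gene's own mean over the 4 arrays, for CXCR4 (large black circles) and the 5 genes nearest to it. Points are single arrays. All 6 genes lie near -2 on both control arrays and near 2 on both embelin arrays.

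The promoter of CXCR4 is shown because its transcript had the largest log2 fold change of the members and several of its known regulators are named above. RefSeq (GRCh38.p14) gave CXCR4 3 start sites and CXCL12 1. The 250 bases before the outermost CXCR4 start, chr2:136118150-136118399 on the minus strand, read as follows, with the motifs GCGCATG (NRF1) and GCGTG (a hypoxia response core) in capitals, searched on both strands.
CXCR4 promoter: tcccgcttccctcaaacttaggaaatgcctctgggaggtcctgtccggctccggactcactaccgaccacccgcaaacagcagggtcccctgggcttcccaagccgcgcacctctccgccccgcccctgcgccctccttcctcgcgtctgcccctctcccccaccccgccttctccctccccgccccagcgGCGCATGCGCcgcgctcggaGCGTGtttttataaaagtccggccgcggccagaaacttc
The first run of capitals, 59 to 50 bases before the start, holds GCGCATG once on each strand in overlap. The second, 39 to 35 bases before the start, holds GCGTG once. Of 35116 promoter windows of 300 bases, from 250 before to 50 after a start, 4.43% held GCGCATG and 36.5% held GCGTG. The other hypoxia response core, ACGTG, was in 21.4% of all windows and in 0 of the 3 CXCR4 windows and 0 of the 1 CXCL12 window. The CXCL12 window held neither of the capitalised motifs. The GC box GGGCGG was found 3 times in the window of this outermost CXCR4 start and 3 times in that of CXCL12, and at least once in 45.0% of all windows. In the windows of the other CXCR4 starts GCGCATG was found 0 and 0 times, GCGTG 0 and 2 times, and GGGCGG 0 and 2 times. CACCC, a core motif of KLF factors, was found 2, 2 and 3 times in the CXCR4 windows and 2 times in that of CXCL12. At least 1 match of it was in 59.9% of all windows. These matches are letters in a window and were not tested as binding sites.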

How the data were processed

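Total RNA was labelled with Cy3 and hybridised to a custom 8x60k Agilent design annotated on hg18. The authors deposited scanner intensity per spot, extracted with Feature Extraction 10.7.3.1 per the file headers (background-subtracted processed signals), and a table of processed intensity per probe that differed from the scanner values by over 0.001 log2 units for 97 to 117 of 50238 probes. GeneSpring GX was used by the study for a shift to the 75th percentile and a t-test; neither result is used.

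Here processed signals of 51538 non-control spots per array were scaled to a common 75th percentile, floored at 1 and taken as log2. Outlier spots (47 to 743 per array) were dropped, and none was saturated. Percentiles before scaling were 601 to 739. Probes had to be well above background on both arrays of 1 group or more, and the probe with the highest mean over the arrays stood for its gene. Of 50238 probes, 28590 were named by accession, 2340 through another probe and 19308 kept the name in the files. Groups were compared with limma 3.58.1 (R 4.3.3) and Benjamini-Hochberg adjustment over all genes, after a test on simulated data. The 4 arrays limit the precision.

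The members, the lists and the rule for named genes were chosen with earlier results of these data known. Named were the 3 members, each list's calls (the 5 largest where more) and its gene of highest mean signal over the 4 arrays, the direct partners, HIF1A, EPAS1, YY1, NRF1 and the 5 genes nearest to CXCR4. Alternatives were background correction, normalization, the deposited table, filters, the mean over probes, blocks, slide position, the methods' t-test, a trended robust fit and leaving out each array.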

Additional observations from a re-analysis of the deposited data

How the results depend on the processing

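The values of CXCR4 and CXCR7 were above 0 under every alternative that gave one, 13 for CXCR4 and 12 for CXCR7. Blocks and slide position are balanced over the groups and by construction leave the fold changes as they are. With normexp correction CXCR4 was 3.38 and CXCR7 0.39. Leaving out single arrays gave 3.77 to 3.90 and 0.45 to 1.04. For CXCL12 no fold change is given under any alternative, also not without the filter on dim probes, since its readings were at or near background. CXCR7 had none where all 4 arrays had to be above background.

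The number of genes called, 342, was 726 with normexp, 208 with the deposited table, 776 with the filter on all 4 arrays and 1065 with the trended robust fit. It was 0 without the dim-probe filter, with the replicate block, with the block of arrays of like background, with slide position, with the methods' t-test after adjustment and in each of the 4 fits without 1 array, and the cause was not tested. Unadjusted p-values under 0.05 then numbered 2343, 3712, 2744, 3027, 2753 and 2130 to 3069, against 3448. Of the pathway genes, 19 were called, 29 with the trended robust fit and 0 under each setting that called no gene. The fits without an array assume the lone array of a group varies like the other group. Same-numbered arrays had deviations correlated at 0.17, and with 2 pairs the numbers were not taken to pair them.

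Of the other named genes, VAV3 lost its call with the mean over probes (-2.95). SDC4 gained one with normexp, the filter on all 4 arrays and the trended robust fit, CCR7 with the last pair, and EPAS1 and PGK1 with the trended robust fit. Some values turned sign. With the mean over probes AKT2 became 0.0048 and HGS -0.064, and the probes of each of these genes differed in direction. GRK5 became 0.026 with normexp and 0.00012 with quantile normalization, and YY1 -0.00030 with the deposited table. Without single arrays GNAI2 ranged from -0.57 to 0.26, GRK5 from -0.26 to 0.19, MIF from -0.038 to 0.31, RGS10 from -0.11 to 0.047, VHL from -0.12 to 0.32 and YY1 from -0.11 to 0.13.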
